A study of Drosophila melanogaster with 2 samples.

Results

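The genes described here encode the cytosolic ribosomal proteins of Drosophila melanogaster, the fruit fly. They were chosen by symbol, as every protein-coding gene whose name begins with RpL, RpLP or RpS, and numbered 92 of 13968 protein-coding genes in the annotation. Of these, 54 were counted by symbol with the large ribosomal subunit (RpL and RpLP) and 38 with the small subunit (RpS). The 54 include RpL24-like, RpL7-like and RpLP0-like, whose counterparts in yeast act in assembling the large subunit. The assay was chromatin immunoprecipitation with sequencing (ChIP-seq), which recovers the DNA fragments that a protein is attached to. The protein was fd59A, a forkhead-box transcription factor, which a stable transgenic fly line carried with GFP, a green fluorescent protein, joined to its C-terminal end, and the precipitation used an antibody against GFP. Chromatin came from whole prepupae, males and females pooled, at an age that the labels give as 24 day, and all of it from 1 line, so that no wild-type or untagged group was among the samples. The 2 samples are biological replicates 2 and 3 of that 1 group. The authors' calling used a control alignment, per the file descriptions, but no control library is among the samples, so signal that does not come from the tagged protein cannot be told apart at any gene, and in whole animals a site bound in few cells cannot be told apart from one bound weakly in many.

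Ribosomal proteins assemble with ribosomal RNA into the large subunit, which joins amino acids, and the small subunit, which reads the messenger RNA. Their genes are among the most highly transcribed in growing cells, and in the fly many are dose sensitive, so that losing 1 copy slows development and thins the bristles (the Minute phenotype). Many fly ribosomal protein genes start transcription inside a run of pyrimidines, the polypyrimidine (TCT) initiator, in place of the usual initiator, and many carry TATCGATA, the element bound by the factor Dref, close to the start. Forkhead proteins are known to bind sequences related to GTAAACA and ATAAACA.

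The start-site sequences of 5 of the genes with the strongest peaks and of 3 genes with no listed region are shown first, because the results turn on where the summits lay relative to the start site and on how the 2 kinds of start site compared. Each line gives the 100 bases before and the 20 bases from the transcription start site (TSS) on, 5′ to 3′ on the gene's own strand, from the RefSeq genome of build dm6 (Release 6). The start shown is the most 5′ one annotated for the gene. Capitals mark an exact TATCGATA or a CTTT that starts within 5 bases of the TSS. RpS27 (chr3R:25247495-25247614, minus strand), RpL34b (chr3R:9401207-9401326, minus strand), RpL32 (chr3R:30046142-30046261, minus strand), RpS10b (chrX:19597931-19598050, plus strand) and RpS28b (chrX:9554523-9554642, plus strand) had strong peaks. RpL40 (chr2L:4227599-4227718, plus strand), RpL6 (chr3R:31596185-31596304, minus strand) and RpS13 (chr2L:8364643-8364762, minus strand) had none. Exact CTTT and TATCGATA matches stood in both sets.
RpS27: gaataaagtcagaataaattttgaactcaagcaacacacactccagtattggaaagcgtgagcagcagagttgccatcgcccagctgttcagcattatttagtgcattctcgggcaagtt
RpL34b: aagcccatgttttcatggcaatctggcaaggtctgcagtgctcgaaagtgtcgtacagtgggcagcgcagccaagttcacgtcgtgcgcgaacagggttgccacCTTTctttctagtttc
RpL32: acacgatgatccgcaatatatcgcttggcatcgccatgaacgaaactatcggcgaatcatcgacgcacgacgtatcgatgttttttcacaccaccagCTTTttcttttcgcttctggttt
RpS10b: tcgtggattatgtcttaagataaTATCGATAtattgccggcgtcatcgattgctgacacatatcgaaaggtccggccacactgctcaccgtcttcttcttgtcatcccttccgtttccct
RpS28b: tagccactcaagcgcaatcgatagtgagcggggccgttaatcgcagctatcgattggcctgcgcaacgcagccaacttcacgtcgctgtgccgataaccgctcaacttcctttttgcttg
RpL40: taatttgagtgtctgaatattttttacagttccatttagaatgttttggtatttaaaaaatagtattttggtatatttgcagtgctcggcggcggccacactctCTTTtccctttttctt
RpL6: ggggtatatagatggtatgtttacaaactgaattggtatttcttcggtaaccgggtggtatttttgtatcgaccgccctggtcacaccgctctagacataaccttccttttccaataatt
RpS13: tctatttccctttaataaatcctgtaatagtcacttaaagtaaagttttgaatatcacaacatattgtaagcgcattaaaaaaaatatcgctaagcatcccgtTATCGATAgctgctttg

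A gene was counted as having a peak where the summit, the highest point of a listed region, lay within 500 bp of the TSS of any of its transcripts. The main list held the 5327 pooled peaks that passed the authors' irreproducible discovery rate (IDR) threshold. The IDR method compares how peaks rank in 2 replicates. At the ribosomal protein genes, however, each IDR peak had the same signal and rank as in the pooled list. The weakest IDR signal was 106, and the strongest ribosomal protein gene outside the list had 104. At these genes the list was thus a cut by pooled signal, and not a check of each peak in both replicates. Of the 92 ribosomal protein genes, 48 (52.2%, Wilson 95% interval 42.1 to 62.1) had an IDR summit, against 13.4% of all protein-coding genes. The replicates gave close to the same count when each was taken alone at the same length of list. Among the 5327 strongest regions of replicate 2, 47 of the 92 genes (51.1%) had a summit, against 12% of all genes. Among the 5327 strongest of replicate 3, 49 genes (53.3%) had one, against 14.2%. In the longer lists, which also hold background regions, the shares were 80.4% against 34.6% in the pooled list (74 of the 92 genes), 76.1% against 32.2% in replicate 2 (70 genes) and 79.3% against 35.9% in replicate 3 (73 genes). All of these intervals cover counting error only, and genes are not replicates, so no p-value is given. The lists carry no read totals, so the depth behind them is unknown.

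**Figure D1:**
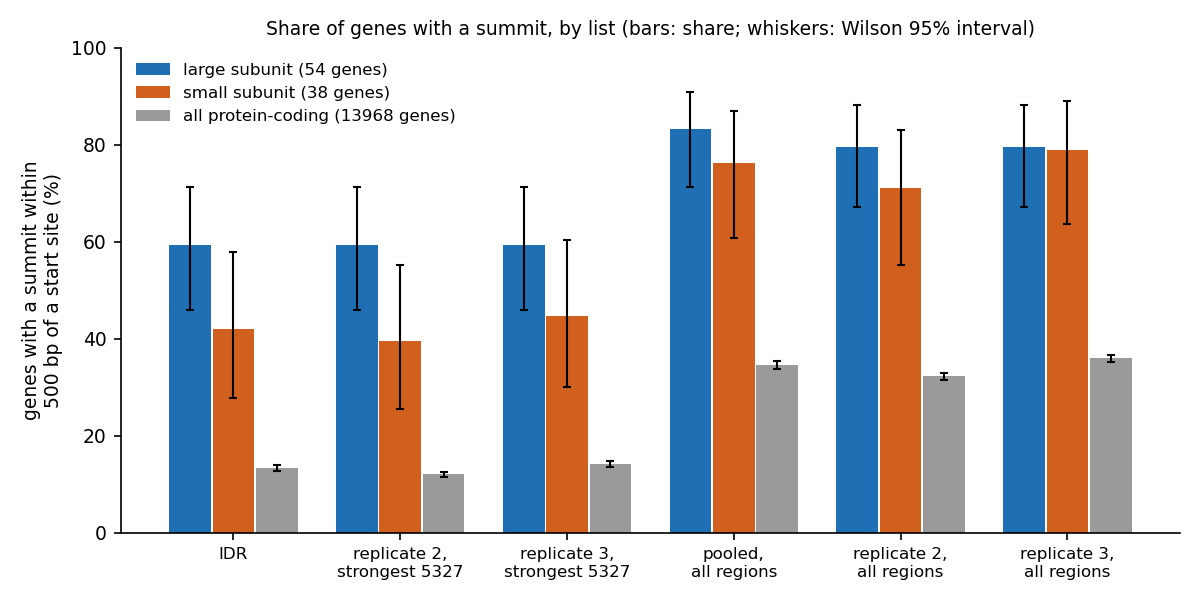
Share of genes with a summit within 500 bp of a TSS (%) in 6 lists, with bars for the 54 large subunit genes, the 38 small subunit genes and all 13968 protein-coding genes and whiskers for the Wilson 95% interval. Both subunits stood above all genes in each list, and the interval of the large subunit overlapped that of the small one throughout.

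The ribosomal protein genes fell into 4 classes by the lists that held them. Beside the 48 genes with an IDR summit, 26 had a region in the pooled list that did not pass the threshold, 13 from each subunit. A further 7 had a region in 1 replicate's list alone. No region of any of the 4 lists lay at the remaining 11 genes. The plot of shares by list sets the 2 subunits beside all genes: the grey bars stay below both colours in the short lists and in the long ones.

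Large subunit genes had an IDR summit more often than small subunit genes, by a margin that changed with the list. The count was 32 of 54 (59.3%, interval 46.0 to 71.3) for the large subunit and 16 of 38 (42.1%, interval 27.9 to 57.8) for the small subunit, a difference of 17.2 percentage points. It was 19.8 points among the strongest regions of replicate 2 and 14.5 points among those of replicate 3. Over the whole of the lists it was 8.58 points in replicate 2, 7.02 points in the pooled list and 0.682 points in replicate 3. The intervals of the 2 subunits overlapped in each list. Among the strongest 2663 IDR peaks, 22.2% of large and 21.1% of small subunit genes had a summit.

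Peaks at ribosomal protein genes were frequent but of middling height. The height is the authors' own signal value, which has no unit given and was used within 1 list only. Over the 48 genes the signal of the strongest IDR peak had a median of 179, with 111 the lowest and 561 the highest, a span of 5.07-fold. The median of all IDR peaks was 193. The strongest IDR peak of each protein-coding gene with a summit had a median of 217. Among IDR summits within 60 bp of the TSS alone, the median was 177 at ribosomal protein genes and 167 at other genes. By rank among the 5327 peaks, 1 of the 48 genes lay in the first 1000, 12 in the next 1000, 12 from 2001 to 3000, 15 from 3001 to 4000 and 8 after that. In the first 1000 peaks the ribosomal protein genes were thus at 1.09% against 3.22% of all genes, and in the stronger 2663 at 21.7% (20 genes) against 7.56%. The large subunit had a median of 177 (111 to 371) and the small subunit of 195 (113 to 561), and the small subunit range reached higher through RpS27 alone.

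**Figure D2:**
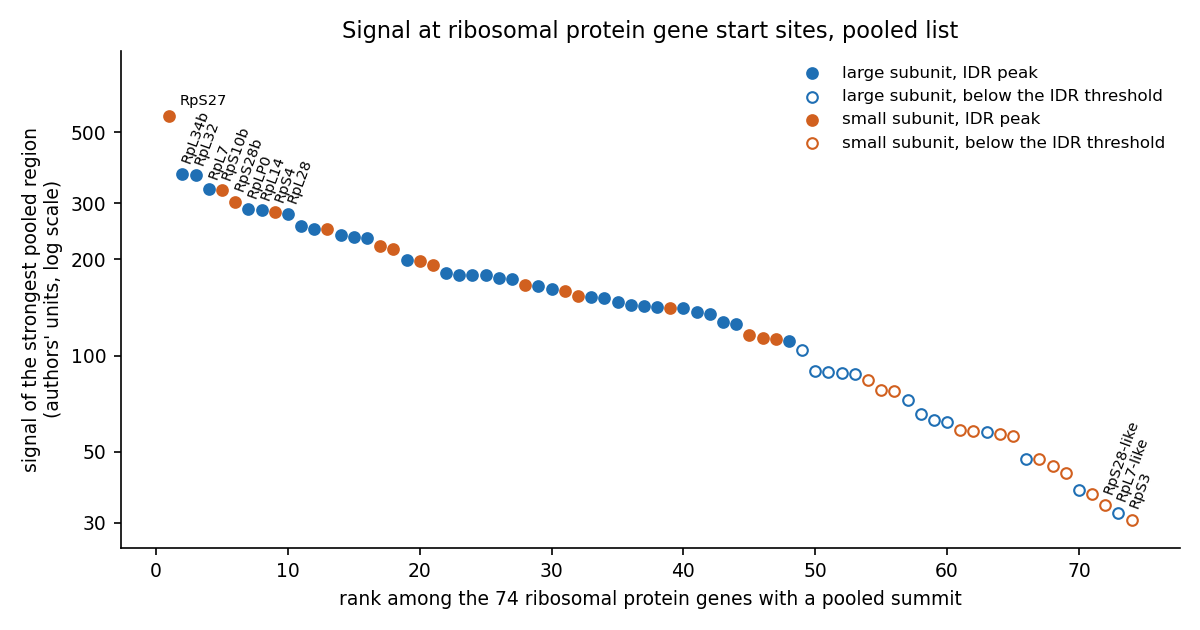
Signal of the strongest pooled region at each of the 74 ribosomal protein genes that had one (authors' units, log scale), in order of rank, with filled points for IDR peaks and open points for regions below the threshold. RpS27 stood apart at 561, and from RpL34b on the signal fell gradually to RpS3. The threshold, at these genes a cut on this same signal, lay between 111 and 104.

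The highest signal of the set was at RpS27, which encodes a zinc-finger protein of the small subunit. Its IDR signal was 561 (rank 530), with 266 in replicate 2 (rank 453) and 302 in replicate 3 (rank 592), and its summit lay at −4 bp from the TSS, where negative is upstream on the gene's strand (region on 3R, 25247393 to 25247631). It stood above the rest of the ribosomal protein genes in both replicates. RpL34b, which encodes a large subunit protein, followed with 371, from 116 in replicate 2 and 254 in replicate 3, at −89 bp (3R, 9401103 to 9401526). RpL32, a large subunit gene widely used as a reference in expression assays, had 368, from 156 and 222, at −115 bp (3R, 30046154 to 30046357). These are the first 3 of the sequences printed above, and the printed starts of RpL34b and RpL32 carry a CTTT.

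The next genes were close to each other in height. RpL7, a large subunit gene, had 332 (150 in replicate 2 and 182 in replicate 3), with its summit at 41 bp, inside the gene's 5′ UTR (2L, 10200946 to 10201136). RpS10b, whose protein sits near the point where messenger RNA enters the small subunit, had 329 (156 and 174) at 2 bp (X, 19597821 to 19598244). RpS28b, whose protein lies near the messenger RNA exit, had 303 (129 and 173) at −39 bp (X, 9554504 to 9554675). All 3 summits lay within 60 bp of the start. Signals of separate lists were not put on 1 scale, so the height in 1 replicate cannot be set against that in the other. RpLP0, the base of the stalk that recruits translation factors, had 288 (93.2 and 188) at −25 bp (3L, 22075855 to 22076278). RpL14 had 286 (114 and 172) at −24 bp (3L, 8600770 to 8601193). RpS4 had 281 (153 and 130) at 1 bp (3L, 13041590 to 13042013), and RpL28 had 278 (102 and 179) at −51 bp (3L, 3222799 to 3223222). Of these 10 genes, 6 belong to the large and 4 to the small subunit.

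Genes with well-studied roles were spread along the range. RpS27A, which makes a fusion of ubiquitin with a small subunit protein, had 216. RpS21 had 197 with its summit at 0 bp, on the TSS itself. RpLP1, another stalk protein, had 143, RpL41, the smallest of the proteins, 142, and RpS18 141. RpL19, a large subunit gene, had 137 and RpL22 128. RpL10, whose protein joins the large subunit late in its assembly, had 125. RpS12, which in the fly is needed for cells with a Minute mutation to be outcompeted, had 113, close to the lower end.

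The threshold, which at these genes was a cut on the pooled signal itself, necessarily fell between genes of neighbouring height. RpL27 was the weakest with an IDR peak, at 111 (43.1 in replicate 2 and 62.9 in replicate 3), and RpL39 was the strongest without, at 104 (63.3 and 42.0). Over the 26 genes below the threshold the median was 58.3, from 30.6 at RpS3 to 104. Among the genes after RpL39 were RpL37-1 (89.4), RpLP0-like (88.7), RpLP2, the partner of RpLP1 in the stalk (88.2), RpL36A (87.7), RpS7 (84.0), RpS29 (77.3), RpL38 (72.4) and RpL21 (65.8). RpS6, whose protein is the classical target of S6 kinase, had 58.6 with its summit at −316 bp. RpS2 had 45.0. The stalk genes thus lay on both sides of the threshold, RpLP0 and RpLP1 above and RpLP2 below.

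Among the 11 genes with no listed region were RpL40, the other ubiquitin fusion gene, and RpL6, RpL29, RpS13 and RpS26, which have no second copy by symbol. The rest were RpL10Aa, RpL22-like, RpL37-2, RpS5b, RpS15Ab and RpS19b, which are copies of another gene. Of the 7 genes listed in 1 replicate alone, 4 were in replicate 2, among them RpL36 (61.2, rank 4016), RpL35 (33.4) and RpL10Ab (26.3). The 3 in replicate 3 were RpS20 (133, rank 2123, at −138 bp), RpS3A (118, rank 2456, at −78 bp) and RpS24 (28.5). RpS20 and RpS3A thus had strong regions in replicate 3 and no summit within 500 bp of a start in the other lists, the pooled list included. Such genes were few in the whole annotation: 25 of the 1981 genes with a summit among the strongest regions of replicate 3 (1.26%) had none in the other lists, and 32 of 1682 (1.90%) in replicate 2. The reason was not tested.

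The replicates ordered the genes in a similar way. Of the 92 genes, 63 had a summit in both replicate lists, with 7 in replicate 2 alone, 10 in replicate 3 alone and 12 in neither. The 63 include all 48 genes with an IDR summit, which were those of highest pooled signal, called on both replicates together. Across the 63 genes the 2 signals had a Spearman rho of 0.80, and across the 48 of 0.63, as descriptions over genes that share the same libraries. With each replicate held to its 5327 strongest regions, 44 genes had a summit in both, 3 in replicate 2 alone, 5 in replicate 3 alone and 40 in neither. Over all protein-coding genes the counts were 1451 in both, 231 in replicate 2 alone and 530 in replicate 3 alone. The summits also lay close together. The gap between the replicate summits had a median of 19 bp over the 48 genes, 38 were within 50 bp, and the widest was 100 bp. RpL24, a large subunit gene, departed from the common order with 147 (rank 1279) in replicate 2 and 86.4 (rank 3593) in replicate 3, and RpL26 in the other direction with 49.9 (rank 5162) and 125 (rank 2322).

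**Figure D3:**
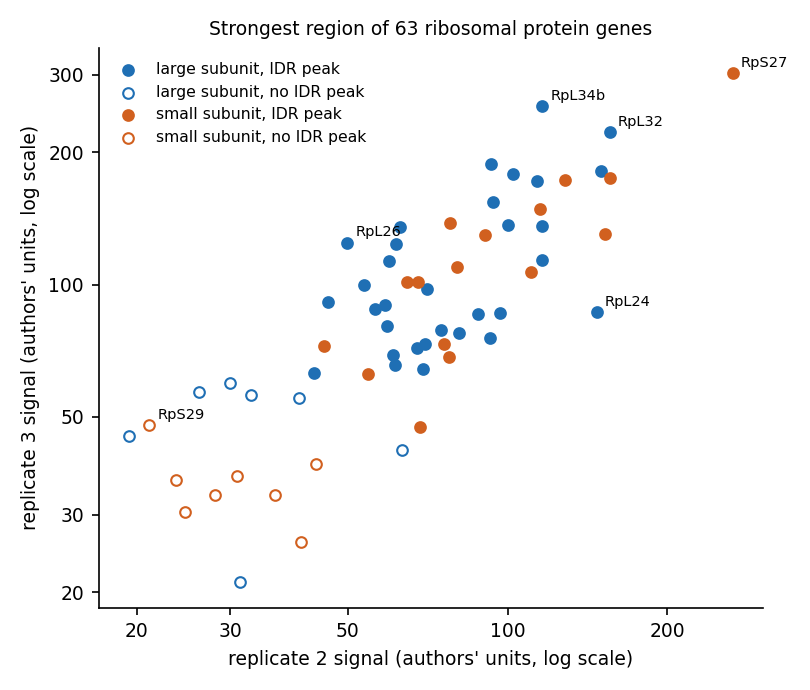
Signal of the strongest region at 63 ribosomal protein genes in replicate 2 (horizontal) and replicate 3 (vertical), both in the authors' units on log scales, with filled points for genes with an IDR peak. RpS27 was highest in both, and RpL24 and RpL26 lay to either side of the band of points.

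The summits at ribosomal protein genes lay on the start site, while those at other genes lay upstream of it. The 48 genes had 50 IDR peaks, since RpL34b and RpL23 had 2 each, with a median position of −30 bp (quartiles −47.8 and −4.25). The 2051 pairs of other genes and peaks had a median of −164 bp (quartiles −269 and −84). A peak near several genes counted once for each of them. The 2051 pairs thus include peaks of ribosomal protein genes, measured from the start of a neighbour. A summit within 60 bp of the TSS was found in 42 of the 50 pairs (84.0%, interval 71.5 to 91.7) and in 211 of the 2051 (10.3%). Each replicate alone gave the same picture, with 82.0% against 11.6% in replicate 2 and 70.6% against 11.0% in replicate 3. The medians there were −26.5 against −162 bp and −38 against −159 bp. A summit lay upstream at 76.0% of the pairs and at 86.0% of the other pairs.

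All 16 small subunit summits lay within 60 bp of the TSS, with a median of −18.5 bp, and 26 of the 34 large subunit summits did so, with a median of −33 bp. The 8 farther summits were all upstream and all at large subunit genes, and RpL23 held the farthest, at −358 bp. The next summits, just outside the window, were at RpS28b (−760 bp, signal 350) and RpS19b (−892 bp, signal 695), and RpS19b is one of the genes with no region inside it. Within the gene models, 31 of the 50 summits lay outside the ribosomal protein gene, 17 in its 5′ UTR, 2 in an intron (RpL3 and RpL26) and 0 in a coding exon. Below the IDR threshold the summits were more scattered, with 18 of 38 pairs (47.4%) within 60 bp, against 17.1% at other genes.

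**Figure D4:**
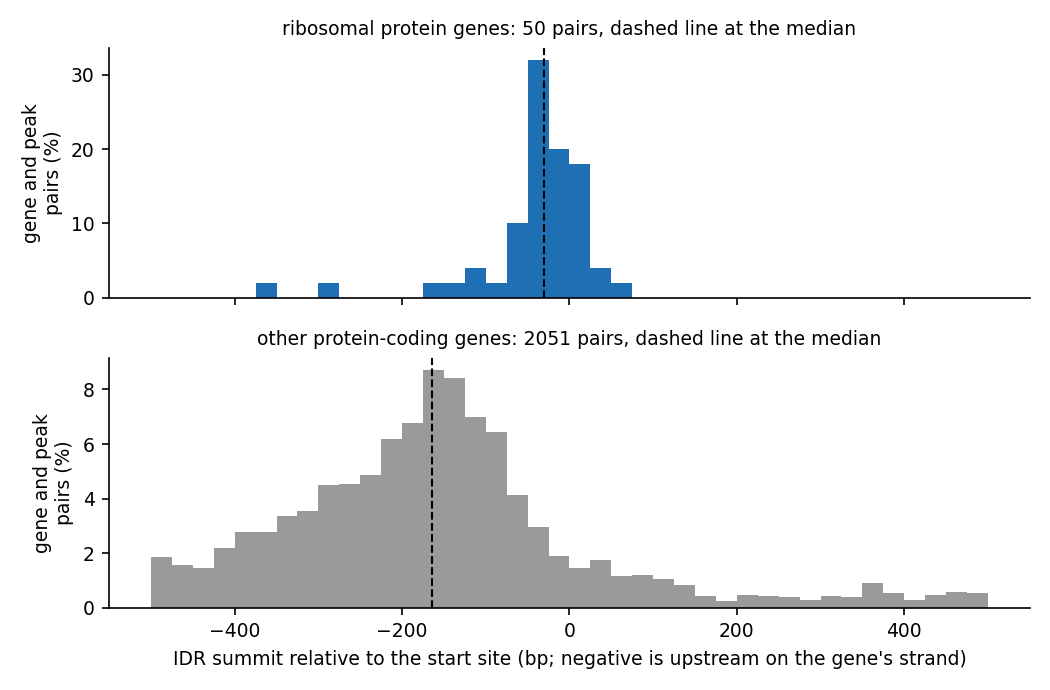
Position of IDR summits relative to the TSS in 25 bp bins (percent of gene and peak pairs), for the ribosomal protein genes (upper) and all other protein-coding genes (lower), with dashed lines at the medians of −30 and −164 bp. The upper distribution was narrow and centred at the start, and the lower one broad and centred upstream.

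The sequence under these summits was richer in G and C than under the peaks of other genes. From 50 bp before to 50 bp after the summit GC was 46.6% ± 8.70 (SD over 50 pairs) at ribosomal protein genes and 33.3% ± 9.15 (SD over 2051 pairs) elsewhere, with 42.2% over the chromosome arms. Peaks shared with a neighbour counted on both sides here too. The GC was 45.0% against 34.5% in replicate 2 and 46.2% against 33.1% in replicate 3. GC moved with position: among summits within 60 bp of the TSS it was 48.8% ± 6.43 at ribosomal protein genes and 39.5% ± 9.38 at others (SD over 42 and 211 pairs). Within the set the relation was loose. Summits far from the start had low GC at RpL23 (−358 bp, 15.8%) and RpL34a (−127 bp, 25.7%) but not at the second peak of RpL23 (−155 bp, 47.5%) or at RpL32 (−115 bp, 44.6%), and RpL27A had 31.7% at −44 bp. The part of GC in the calling of these regions was not tested. From 80 bases before to 20 after the TSS the median GC was 46.5% at ribosomal protein genes with an IDR summit, 43.6% at those without, and 42.6% over all genes.

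**Figure D5:**
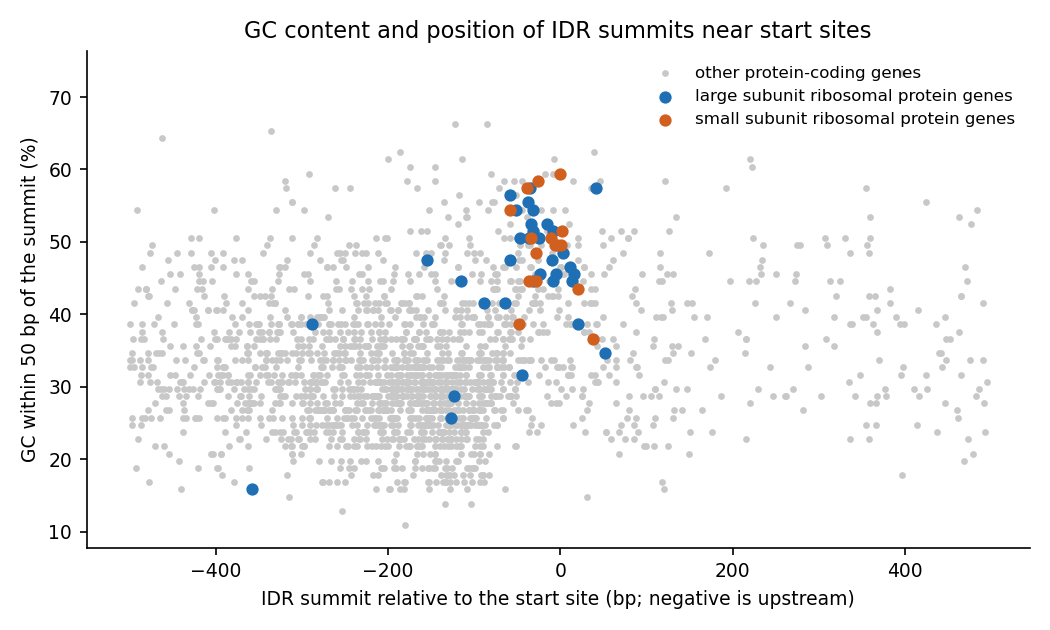
GC of the sequence from 50 bp before to 50 bp after each IDR summit (%) against its position relative to the TSS (bp), for large subunit genes (blue), small subunit genes (orange) and all other protein-coding genes (grey). The ribosomal protein genes gathered near the start site around 48.8% GC, above and to the right of the main body of grey points.

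The element TATCGATA was common at ribosomal protein genes whether or not they had a peak. Counted on both strands from 250 bases before to 50 after the canonical TSS of the annotation, it was present in 27.1% of ribosomal protein genes with an IDR summit (interval 16.6 to 41.0) and 34.1% of those without (interval 21.9 to 48.9), against 8.94% of all genes. A CTTT on the sense strand, starting within 5 bases of the canonical TSS, stood at 50% and 40.9% of them, against 5.72% of all genes. The canonical start can differ from the one printed above, as at RpL32, whose CTTT lies at the most 5′ start and is not in this count. GGTCACACT, the motif bound by M1BP, was in 14.6% and 4.55%, against 5.86%. Under the summits, in the same 50 bp to each side, TATCGATA was in 12% of the 50 peaks against 1.43% of 1542 other promoter peaks, and GGTCACACT in 6% against 0.259%. The summit windows were not matched for position. Of the pairs, 84.0% at ribosomal protein genes and 10.3% at others lay within 60 bp of the TSS. In the 28 ribosomal protein genes with TATCGATA it started at a median of −63.5 bp. The part of position in these shares was not tested.

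The forkhead letters GTAAACA and ATAAACA stood at these genes in shares whose Wilson intervals included the shares over all genes. GTAAACA was found in 2.08% of the promoters with an IDR summit (1 of 48, interval 0.369 to 10.9) and 9.09% of those without. At other genes with an IDR summit it was in 11.1%, just above the interval for the 48. It was in 5.43% of all 92 ribosomal protein genes (interval 2.34 to 12.1) and 9.31% of all genes. ATAAACA was in 16.7% of the promoters with an IDR summit (interval 8.70 to 29.6), 6.82% of those without and 13.0% of all genes. It was in 13.7% of other genes with an IDR summit. Under the summits GTAAACA stood in 0 of 50 peaks (a Wilson interval up to 7.13%) against 2.53% of other promoter peaks, and ATAAACA in 4% against 5.25%. TAATTA, a homeodomain core, was under 2% against 10.3%, and GAGAG, the letters bound by the GAGA factor, under 6% against 11.1%. A match is a description of letters only, and so is the lack of one in so short a window.

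Many of the genes share their promoter region with a neighbour on the opposite strand. Such a head-to-head start within 1000 bp was annotated for 68.8% of the genes with an IDR summit and 47.7% of those without, against 54.6% of other genes with an IDR summit and 34.0% of all genes. Of the 50 peaks, 28 (56.0%) also lay within 500 bp of another gene's TSS, against 32.6% of the other promoter peaks, and the ribosomal protein gene had the nearer start in 23 of the 28. At RpL13 the summit lay at −47 bp from its own start and at −37 bp from that of Dref, the factor that binds TATCGATA. RpS27 shared its peak with Nup37, a nuclear pore gene, at −140 bp, RpL14 with Nelf-E, a subunit of a factor that pauses RNA polymerase, at −103 bp, and RpL28 with the initiation factor gene eIF1 at −330 bp. RpS27A and Ip259, which lie on the same strand, were each at −48 bp. Which of 2 neighbours a peak belongs to cannot be told apart from its position.

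The genes are short and compact, with or without a peak. Small nucleolar RNA genes, which guide the modification of ribosomal RNA, lay inside 33.3% of the genes with an IDR summit and 27.3% of those without, against 0.601% of all genes. More than 1 annotated start was listed for 58.3% and 36.4%, against 26.5% of all, and each further start widens the window in which a summit counts. The median gene length was 1428.5 bp with a summit and 1146.5 bp without, against 2164.5 bp over all genes. By chromosome arm, an IDR summit was found at 10 of 14 members on X (13.9% of all genes there), 10 of 14 on 3L (14.6%), 10 of 19 on 2L (13.7%), 9 of 21 on 2R (12.4%) and 9 of 23 on 3R (13.0%). Chromosome 4 holds 1 member, with no IDR summit, and 1.25% of its 80 genes had one.

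Where the fly has a second copy of a gene, most often 1 copy had the peak. Of 12 pairs whose symbols differ in a final a or b or in -like, 1 copy had an IDR summit in 9, both had one in 2, and neither in 1. RpS5a had a signal of 249 (115 and 149 in the replicates), while RpS5b, the copy used in the female germline, had no region in any list. RpL22 (128) stood beside RpL22-like, the germline copy, with no region, and the same held for RpS19a (160) beside RpS19b and for RpS15Aa (113) beside RpS15Ab. RpS10b (329) stood beside RpS10a with 47.4 in the pooled list, below the threshold, and RpS28b (303) beside RpS28a with 56.2. Both copies had a peak in the pair RpL34b (371) and RpL34a (173), and in the tandem pair RpS14b (166) and RpS14a (116). The pair RpL10Ab and RpL10Aa had none. A further pair and a further copy were added after their values were seen: RpL37-1 (89.4 in the pooled list) and RpL37-2 (no region) both lacked an IDR summit, and RpS28-like had 34.0 in the pooled list beside RpS28b.

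Some of the copies are no ribosomal proteins by their known role. In yeast the counterparts of RpL24-like, RpL7-like and RpLP0-like act in assembling the large subunit. RpL24 had a signal of 239, RpL7 of 332 and RpLP0 of 288, and their -like partners had 47.5, 32.2 and 88.7 in the pooled list, all below the threshold. Of the windows of 32 bases within 250 bp of the TSS, over 90% were unique in the genome at 91 of the 92 genes, the exception being RpS15Ab, one of the copies with no region. The length of the reads is not given, and the part of shared sequence in these values was not tested.

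Other genes of protein synthesis were counted in the same way. Of 73 mitochondrial ribosomal protein genes, 16 (21.9%) had an IDR summit, with a median position of −171 bp, 1 of 16 within 60 bp and a mean GC of 29.6%. The strongest were mRpS10 (1740), mRpS23 (1731) and mRpL41 (1494), far above RpS27. Of 36 translation factor genes 12 (33.3%) had one, with a median position of −72 bp, 3 of 13 pairs within 60 bp and a mean GC of 47.7%, led by larp (2385), eIF6 (1288.5), which keeps the subunits apart, and pAbp (402), the poly(A)-binding protein. Of 28 regulators and ribosome assembly genes 6 (21.4%) had one, led by Ns2 (817), Irbp18 (624), the partner of the Minute regulator Xrp1, and NHP2 (285). The gene sta, which encodes a protein of the small subunit under a symbol that the rule does not take, was among these 6 with a signal of 118 at 50 bp.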

How the data were processed

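ChIP-seq of eGFP-tagged fd59A in whole prepupae gave 4 region lists in build dm6: 1 for each of the 2 replicates, 1 called on pooled alignments and 1 of pooled peaks past the IDR threshold. Per the deposited file descriptions, calling used a control alignment. Neither the labels nor these descriptions name the caller, the IDR threshold or the scaling of the signal, which are thus not given here. The authors deposited for each region a signal value, a −log10 q value and the offset of its summit. Regions of equal signal were ranked in the order deposited. The dm3 lists were not used.

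Summits (region start plus offset) were matched to start sites of the Ensembl release 115 annotation, with the dm6 sequence from RefSeq. Single-replicate shares used the 5327 strongest regions. The counting code, tested on simulated data, recovered 200 of 200 planted genes. With 1 group and peak lists there was nothing to test between conditions, so counts, medians and Wilson 95% intervals are given.

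The ribosomal protein genes, the comparison lists and the motifs were chosen with earlier results of these data known. Genes named were the 10 strongest with an IDR peak, the 10 strongest below the threshold, all with no region, every pair of copies, a list of well-studied members, and the 3 strongest of each comparison list. Genes listed in 1 replicate alone, the start-site sequences shown, RpL24 and RpL26 in the replicate plot, the neighbours of shared peaks and the genes of lowest GC were named after their values were seen. A few genes that these rules take are not reported here. Of the symbols looked for, eIF5A, mnt, Tor, RpI1, RpI135 and FK506-bp1 were not found among the annotation's names and were omitted. Alternatives varied the window, the start sites, the list, the assignment of shared peaks and the replicates. Python 3.11.15, numpy 2.4.6, pandas 2.3.3, scipy 1.17.1 and matplotlib 3.10.9 were used.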

Additional observations from a re-analysis of the deposited data

How the results depend on the processing

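Of 59 alternatives to the counts and medians above, 48 stayed close to the value reported. The measure of closeness was loose. For counts, 45 large subunit genes in the whole pooled list passed as close to 32. For position, upstream share and GC the limit was the SD of the 2 single-replicate values, which were themselves among the alternatives. Only the median position could reverse, by a change of sign, and it kept its sign. The number of ribosomal protein genes with a summit followed the length of the list. It was 48 in the IDR list, 74 in the whole pooled list (29 of them small subunit genes, against 16), 20 in the stronger 2663 IDR peaks (12 large and 8 small) and 1 in the strongest 1000 (0 large and 1 small). With a window of 250 bp it was 48, and with 1000 bp 49. Leaving out either replicate, by taking the strongest regions of the other alone, gave 47 to 49 genes, 32 in each case for the large subunit and 15 to 17 for the small one, a median position of −38 to −26.5 bp, 68.0 to 86.3% upstream and a median GC of 46.5 to 48.5%, against 48.0% with both. With the most 5′ start site alone, 62.0% of summits lay upstream, against 76.0%, since a summit upstream of a later start can lie downstream of the first. The number of genes in both replicates fell from 44 to 15 with 2500 regions each. Leaving out the 2 pairs farther than 200 bp, chosen after seeing the data, kept every value within the spread used to compare them. No paired analysis was possible because the samples form 1 group. Depth is unknown, so a gene with no listed region may lie below what these libraries could show. Shares rest on 54 and 38 genes, and the replicate 3 list stops at exactly 30000 regions.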
